A study of Mus musculus with 4 samples.

Results

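The transcripts described here encode the protein parts of the mitochondrial ribosome, measured in mouse breast cancer cells with and without depletion of YTHDF3. They were taken from the platform annotation as every probe set whose only gene symbol begins with Mrpl or Mrps followed by a number, Mrpl standing for the large and Mrps for the small ribosomal subunit. This gave 80 of 41345 probe sets, 47 with an Mrpl and 33 with an Mrps symbol, which stood for 71 genes (43 Mrpl, 28 Mrps). A further 13 probe sets name such a gene together with another one and were left out, and 7 genes of the family were present only on those. The cells were 4T1Br, derived from the mouse mammary tumour line 4T1 for its spread to the brain (the sample titles write 4T1). Both groups were infected with lentivirus and selected with puromycin. The shControl group (2 arrays) carried a control hairpin and the shYTHDF3 group (2 arrays) a hairpin against YTHDF3, a cytoplasmic protein that reads N6-methyladenosine in messenger RNA. The labels do not say whether the arrays of a group came from separate cultures or from 1 infected pool, so each p-value rests on the spread between these 4 samples alone, and that spread may be technical.

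The mitochondrial ribosome makes the few respiratory chain subunits that mitochondrial DNA encodes. All of its proteins are encoded in the nucleus, made in the cytosol and imported, and are then assembled with ribosomal RNA transcribed in the organelle. Some descend from bacterial ribosomal proteins and others have no bacterial counterpart.

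Values are log2 RMA expression, 1 value per probe set and array, and differences are shYTHDF3 minus shControl group means. Background was the 95th percentile of olfactory receptor probe sets, log2 4.28, and limma was run on the genes above it, each through its brightest probe set. Ythdf3 itself read 8.98 and 8.81 on the control and 8.21 and 8.16 on the knockdown arrays, so the targeted transcript was lower on both knockdown arrays (difference -0.71, SE 0.10, limma adjusted p = 0.0355). That call ended at limma adjusted p of 0.141 to 0.188 with any 1 array left out, 0.0866 without the filter on dim probe sets, 0.0758 with the replicate number as a block and 0.188 over all probe sets past the filter. Median expression over all probe sets lay between 4.42 and 4.47 on the 4 arrays. The labelled epithelial origin was borne out in part: Krt8 and Krt18, keratins of simple epithelia, read 10.04 to 11.13 and, on each knockdown array, above both control arrays (differences 0.31 and 0.57, neither past the test). Krt7, another of them, rose from 5.55 and 5.58 to 6.99 and 7.15 (limma adjusted p = 0.00816), a call that ended with any 1 array left out (limma adjusted p of 0.0514 to 0.160) and over all probe sets past the filter (0.154). Krt19 went the other way, from 6.86 and 6.63 to 6.30 and 6.13, difference -0.53, limma adjusted p = 0.0816. By contrast, Epcam read 3.80 to 4.05, under the background, and Cdh1 4.37 to 4.61. The part of these keratin values in the results on the ribosomal genes was not tested. Of 10 markers of other cell types, 5 were under the background (Ptprc, Adgre1, Cd3e, Pecam1 and Gfap) and none of the other 5 passed the test; the macrophage-associated Cd68 read 7.30 and 7.57 on the control and 6.62 and 6.82 on the knockdown arrays (limma adjusted p = 0.0547). The array reads the average of a culture, so less RNA per cell and fewer cells with the RNA cannot be told apart.

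Transcripts of the mitochondrial ribosome differed little between the groups and in both directions. Of the 71 genes, 70 were tested and read above background on every array, and 0 of them passed the limma test, where 2.73% of all 13056 genes tested did. Of all genes, 1.28% were called higher and 1.45% lower. Unadjusted p was under 0.05 for 6 higher (8.57%) and 3 lower (4.29%) members of the family, against 12.2% and 10.4% of all genes (22.6% together). The differences ran from -0.36 for Mrpl9 to 0.43 for Mrpl23, with 35 above and 35 below 0 and a median of -0.0037, beside 0.0057 for all genes tested. The greatest of them was a 1.35-fold difference. None of the 70 differed by more than 0.5 on the log2 scale, which 6.17% of all genes did. The smallest difference that limma called over all genes was 0.51, so differences of the family's size were called in no gene. The median absolute difference between groups was 0.113 over the 70 genes, and the median absolute gap between replicate arrays was 0.111 in shControl and 0.0956 in shYTHDF3. The first is a difference of 2-array means and the others are gaps between single arrays, so they are not on the same footing. For all genes tested the same values were 0.148 between groups and 0.126 and 0.107 between replicates.

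**Figure D1:**
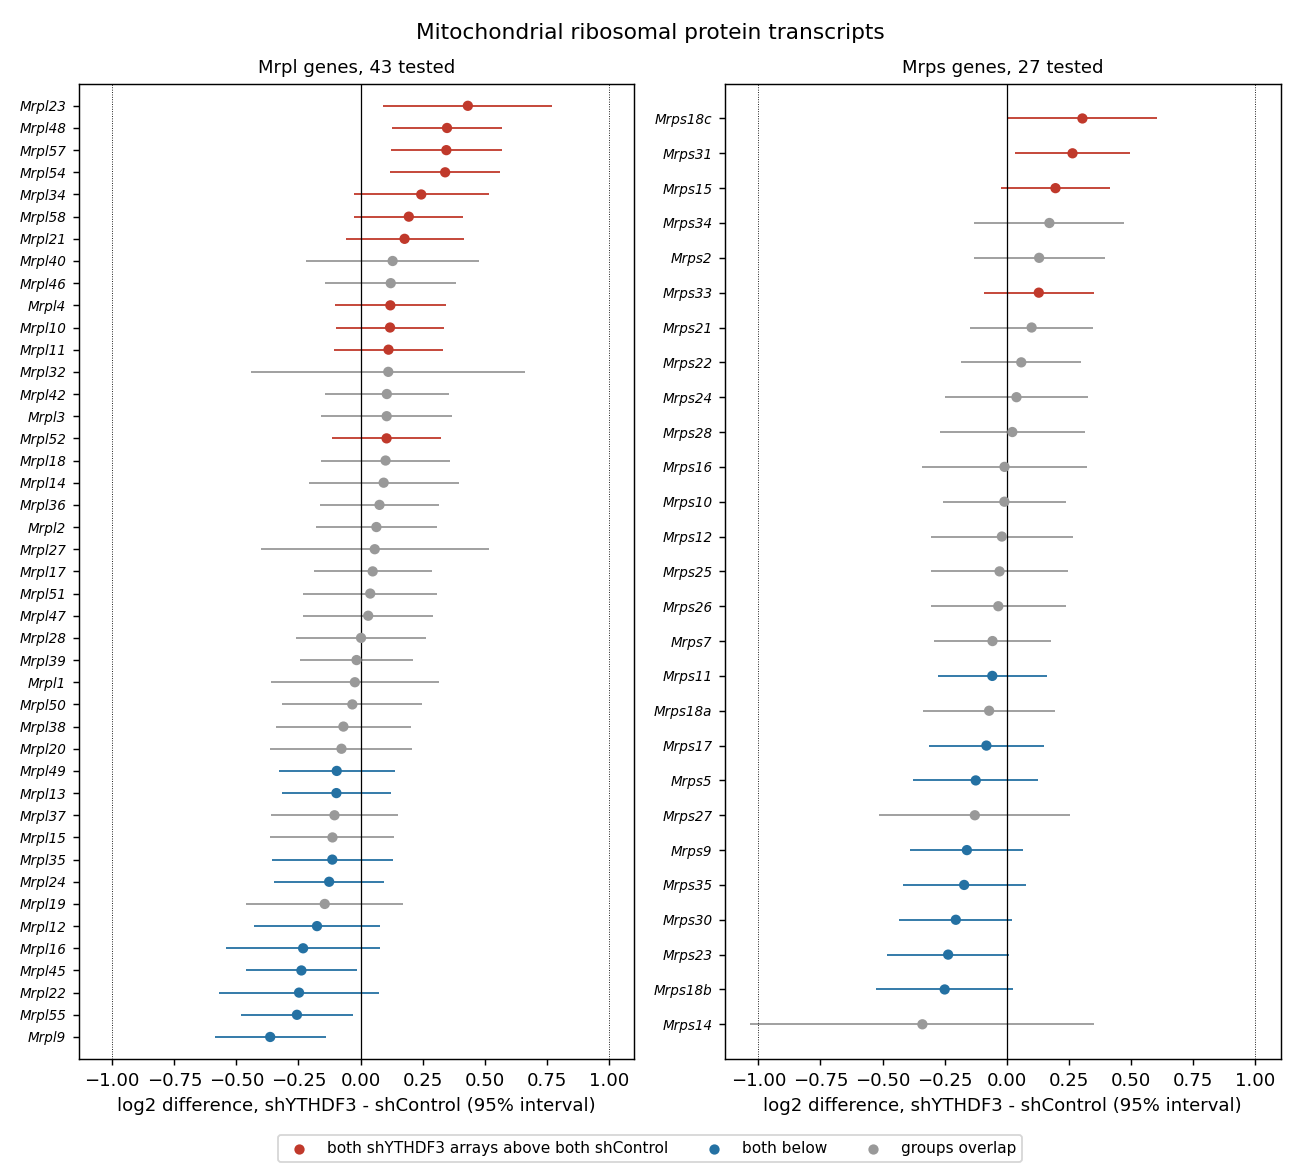
Log2 difference (shYTHDF3 minus shControl, horizontal axis) of each tested gene with its 95% limma interval, Mrpl genes on the left (43) and Mrps genes on the right (27), ordered by size; red marks genes whose shYTHDF3 arrays both lie above both shControl arrays, blue the reverse, grey an overlap. The points run from -0.36 to 0.43 around 0, and Mrps14 alone has an interval that reaches past a 2-fold difference (dotted lines at -1 and 1).

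The intervals show what sizes these arrays could still hold. A 95% interval that stayed within a 2-fold difference in both directions was found for 69 of the 70 genes, and for 97.2% of all genes tested. The exception was Mrps14, a protein of the small subunit's head, whose interval ran from -1.03 to 0.35. It read 6.22 and 5.88 on the control and 6.13 and 5.29 on the knockdown arrays. The groups overlapped, and the low value came from shYTHDF3 2 only. In 61 of the 70 genes the interval held 0, which means that their unadjusted limma p was not under 0.05. Among all genes tested, 22.6% had an unadjusted limma p under 0.05. Both shYTHDF3 arrays lay above both shControl arrays in 15 genes (21.4%) and below in 18 (25.7%), where 28.3% and 25.7% of all genes did so.

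The large subunit holds the site where peptide bonds form. Its 43 Mrpl genes had a median difference of 0.049, with 25 above and 18 below 0. None passed the limma test. Unadjusted p was under 0.05 for 4 higher (9.30%) and 3 lower (6.98%) genes, against 12.2% and 10.4% of all genes. The median level over these genes was 7.55 and 7.48 with the control hairpin and 7.47 and 7.53 with the YTHDF3 hairpin, so the groups overlapped. Leaving out single arrays moved that median difference from -0.015 (without shControl 2) to 0.10, and it was below 0 in that 1 case.

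Mrpl23 had the highest difference of the family. Its product is the counterpart of a bacterial protein at the mouth of the peptide exit tunnel. It read 6.05 and 5.91 on the control and 6.58 and 6.25 on the knockdown arrays, difference 0.43, SE 0.14, 95% interval 0.091 to 0.77, limma adjusted p = 0.150. The groups did not overlap, but the knockdown arrays stood 0.33 apart by themselves.

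Next came 3 genes of proteins without a bacterial counterpart. Mrpl48, a protein of the central protuberance, read 4.75 and 4.73 on the control and 5.12 and 5.06 on the knockdown arrays, difference 0.35, SE 0.09, limma adjusted p = 0.103. Mrpl57 read 6.60 and 6.56 on the control and 6.90 and 6.95 on the knockdown arrays, difference 0.35, SE 0.09, limma adjusted p = 0.104. Mrpl54 read 8.24 and 8.20 on the control and 8.54 and 8.58 on the knockdown arrays, difference 0.34, SE 0.09, limma adjusted p = 0.107. In each of the 3 the replicates lay close together and the knockdown arrays were the higher ones, and none passed the test over all genes. Mrpl34, the counterpart of a small bacterial protein, read 8.25 and 8.07 on the control and 8.46 and 8.34 on the knockdown arrays, difference 0.24. Mrpl58 encodes a ribosome-bound hydrolase that frees stalled peptides, also known as Ict1. It read 8.18 and 8.21 on the control and 8.39 and 8.39 on the knockdown arrays, difference 0.19, limma adjusted p = 0.265.

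At the other end, Mrpl9 had the lowest difference and the smallest adjusted p of the family. It is the counterpart of a bacterial protein of the large subunit. It read 7.74 and 7.68 on the control and 7.36 and 7.33 on the knockdown arrays, difference -0.36, SE 0.09, 95% interval -0.59 to -0.14, limma adjusted p = 0.0955. The replicates of each group lay within 0.061 of each other and the groups were apart. Mrpl55, which sits in the central protuberance, read 7.31 and 7.29 on the control and 7.08 and 7.01 on the knockdown arrays, difference -0.26, SE 0.09, limma adjusted p = 0.181. Mrpl22, which lines the exit tunnel, read 6.91 and 6.76 on the control and 6.74 and 6.44 on the knockdown arrays, difference -0.25, limma adjusted p = 0.325. In Mrpl22 the groups came within 0.025 of each other. Mrpl45, a protein at the tunnel exit that faces the inner membrane, read 7.78 and 7.83 on the control and 7.58 and 7.56 on the knockdown arrays, difference -0.24, SE 0.09, limma adjusted p = 0.198. Mrpl16 differed by -0.23 and Mrpl12 by -0.18; in both the groups did not overlap and the limma adjusted p was 0.337 and 0.370.

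An intensity trend in limma's variance model, which called 10.9% of all genes (5.59% higher, 5.33% lower), called 2 of the 70: Mrpl54 was higher (limma adjusted p = 0.0248) and Mrpl9 lower (limma adjusted p = 0.0353). A robust form of it, which called 11.2% (5.78% higher, 5.44% lower), named the same 2. Leaving out an array gave no call in the family.

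**Figure D2:**
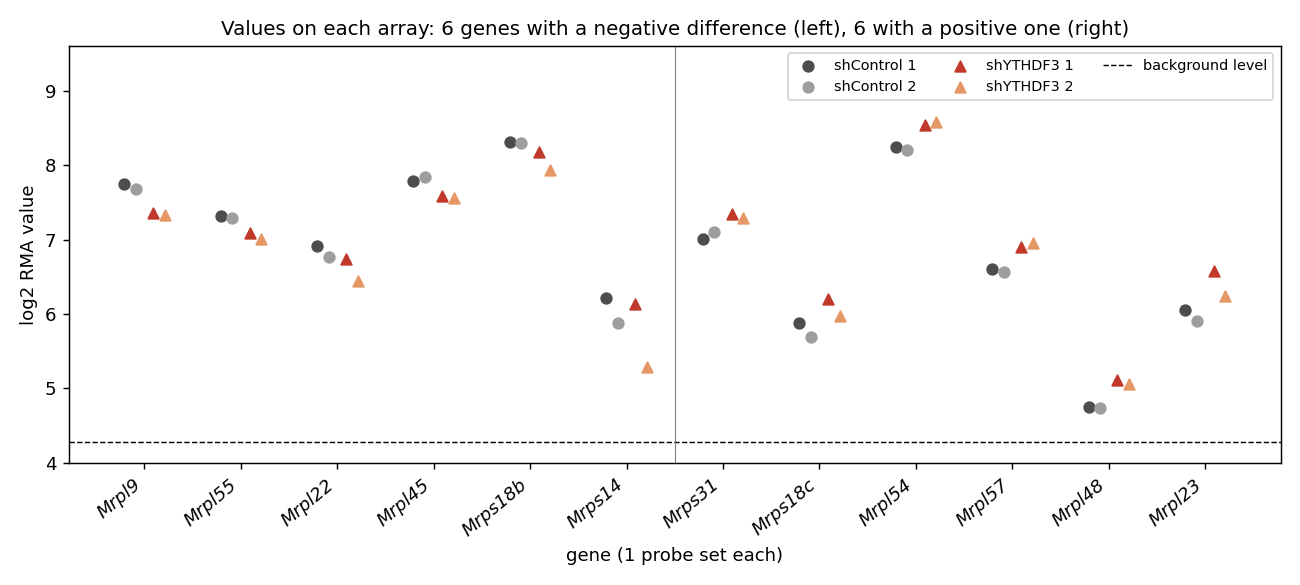
Log2 RMA value (vertical axis) on each of the 4 arrays for 12 genes, 6 with a negative difference on the left and 6 with a positive one on the right; circles are shControl, triangles shYTHDF3, and the dashed line is the background level of 4.28. Triangles sit apart from circles in 11 of the 12 genes by small steps, and in Mrps14 they overlap, with shYTHDF3 2 alone low at 5.29. The 12 genes have the 6 lowest and 6 highest differences of the family, a choice that favours groups apart. Over the 70 tested genes 47.1% had groups apart, against 54.0% of all genes tested.

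The small subunit binds messenger RNA and decodes it. Its 27 tested Mrps genes had a median difference of -0.029, with 10 above and 17 below 0, none past the limma test. Unadjusted p fell under 0.05 for 2 of them (7.41%), Mrps31 and Mrps18c, both higher, against 12.2% higher and 10.4% lower of all genes. The median level was 7.19 and 7.22 with the control hairpin and 7.18 and 7.25 with the YTHDF3 hairpin, again overlapping. Leaving out single arrays moved that median difference from -0.049 to 0.015, and it was above 0 without shYTHDF3 2. The medians of the subunits, 0.049 and -0.029, were not tested against each other.

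Mrps18c encodes 1 of 3 mitochondrial relatives of a single bacterial protein and read 5.88 and 5.70 on the control and 6.20 and 5.98 on the knockdown arrays, difference 0.30, SE 0.12, limma adjusted p = 0.218. Mrps31, without a bacterial counterpart, read 7.01 and 7.09 on the control and 7.34 and 7.29 on the knockdown arrays, difference 0.26, SE 0.09, limma adjusted p = 0.178. Mrps15 read 9.20 and 9.23 on the control and 9.42 and 9.39 on the knockdown arrays, difference 0.20, limma adjusted p = 0.263. In these 3 both knockdown arrays were higher. Mrps34 differed by 0.17, Mrps2 by 0.13 and Mrps33 by 0.13, and of them only Mrps33 had groups that did not overlap.

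On the lower side, Mrps18b, another relative of the same bacterial protein but listed here among proteins without a bacterial counterpart, read 8.31 and 8.29 on the control and 8.17 and 7.93 on the knockdown arrays, difference -0.25, SE 0.11, limma adjusted p = 0.257. Mrps23 read 7.18 and 7.27 on the control and 6.93 and 7.05 on the knockdown arrays, difference -0.24, SE 0.10, limma adjusted p = 0.233. Mrps35 differed by -0.17 and Mrps9 by -0.16. All 4 had both knockdown arrays below both control arrays. So did Mrps30, at -0.21. Mrps30 and Mrps18a carry a small-subunit name but are placed in the large subunit in structures of the mammalian ribosome; Mrps18a differed by -0.071, with overlapping groups.

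Mrps36 was the only gene of the family under the background. It read 4.05 and 3.43 on the control and 3.90 and 3.59 on the knockdown arrays and was not tested. Its product is now known as a subunit of the oxoglutarate dehydrogenase complex rather than of the ribosome.

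As no gene of the family was called, no group by position or origin could hold a call, and their differences are described instead. Among large-subunit genes with a bacterial counterpart the median difference was 0.040 (28 genes, 16 above 0), and among those without it was 0.10 (15 genes, 9 above 0). The small-subunit medians were -0.0097 with (15 genes) and -0.032 without a bacterial counterpart (10 genes). The stalk recruits elongation factors: Mrpl10 and Mrpl11 differed by 0.12 and 0.11 and Mrpl12 by -0.18, each with groups apart. In the list for the exit tunnel, Mrpl22, Mrpl24 and Mrpl45 were below 0 (-0.25, -0.13 and -0.24) and Mrpl23 above it. None of these 4 had overlapping groups, while 54.0% of all genes had groups apart in either direction. In the list for the central protuberance, which touches the transfer RNAs, 6 of 8 genes were above 0. The median of that list was 0.10, between Mrpl55 at -0.26 and Mrpl48 at 0.35.

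**Figure D3:**
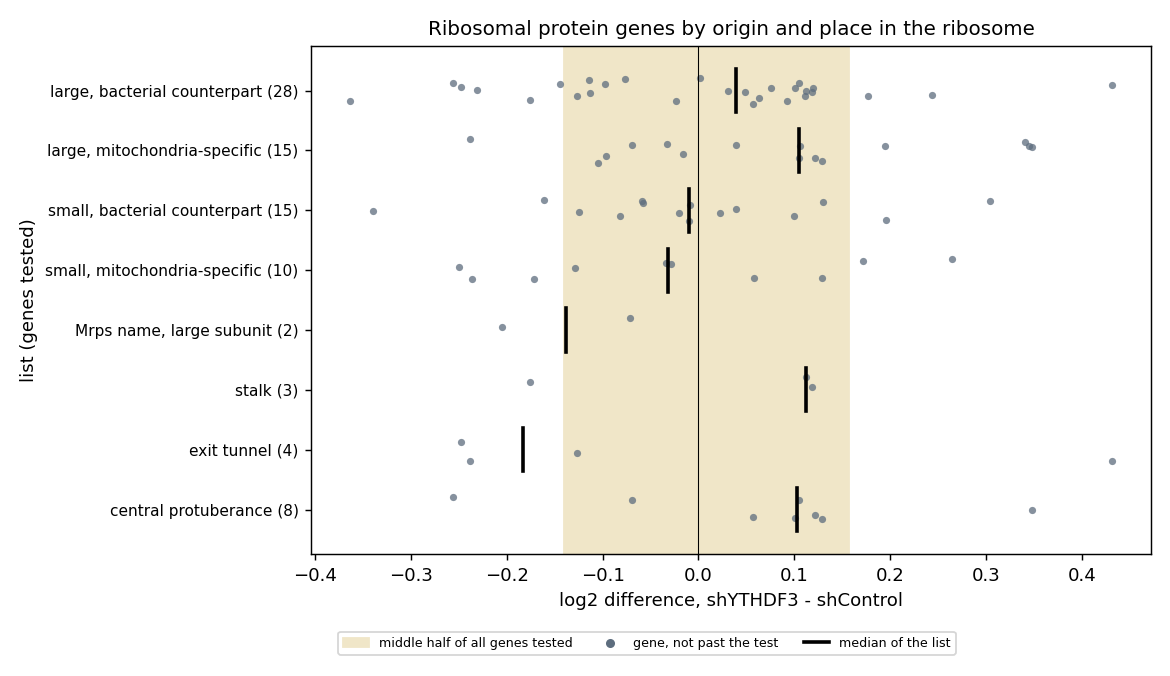
Log2 difference (horizontal axis) of each tested gene, grouped by bacterial origin or by place in the ribosome; the thick bar is the list's median, the shaded band the interquartile range of all genes tested, and the number of genes is in brackets. Each of the 4 origin lists has points on both sides of 0 and a median inside the band; in the list for the exit tunnel, 3 genes lie below 0 and Mrpl23 at 0.43.

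Second probe sets bear on how firmly single genes can be read. There were 9 genes with 2 probe sets, and the second one had the same sign as the tested one in 5. Mrpl12 differed by -0.18 and -0.26 and Mrps18b by -0.25 and -0.084, the second Mrps18b groups overlapping. Mrps5 differed by -0.12 and -0.045. The second probe sets of Mrpl36 and Mrps18c lay under the background (0.029 and 0.11, beside 0.076 and 0.30). The signs were opposite for Mrpl10 (0.12 and -0.14), Mrpl47 (0.031 and -0.059), Mrps17 (-0.082 and 0.31) and Mrps16 (-0.0092 and 0.30). For Mrps16 the second probe set read 5.54 and 5.49 on the control and 5.85 and 5.78 on the knockdown arrays, whereas on the tested one, 6.82 and 7.13 against 6.89 and 7.04, the groups overlapped.

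Promoters of these genes are known for sites of factors that serve nuclear genes of mitochondria, among them nuclear respiratory factor 1 (NRF1), GABPA and YY1. RefSeq promoter windows (GRCm38.p6, 250 bases before to 50 after the start) were found for 62 of the 71 genes, 68 windows in all. The NRF1 core, GCGCA and GCGC with any 1 base between them, on either strand, was in 16.2% of them and in 4.60% of all 32851 promoters. The ETS core bound by GABPA, CCGGAAGT, was in 14.7% against 3.89%, and the YY1 core AAGATGGC in 17.6% against 2.75%. The E-box CACGTG, which the growth regulator MYC can bind, was in 10.3% against 7.15%. Its 7 windows came from 5 of the 62 genes, as overlapping windows of Mrpl2 hold the same site, so the 10.3% counts that site more than once. A window could hold more than 1 motif. The tested genes with an NRF1 core had a median difference of -0.016 (11 genes) and those with a window but no such core 0.016 (50 genes). With an E-box the median was 0.064 (5 genes), without it -0.0037 (56 genes). The ETS core gave 0.079 (10 genes) and -0.016 (51 genes), and the YY1 core -0.058 (12 genes) and 0.039 (49 genes). Of the 11 genes with an NRF1 core, 4 had both knockdown arrays below both control arrays and 1 had both above. With the ETS core 0 of 10 were below and 3 above, and with the YY1 core 3 of 12 below and 0 above. With the E-box 0 of 5 were below and 1 above. Over all genes tested 25.7% were below and 28.3% above. Whether a motif goes with a direction was not tested. The 100 bases before the start are printed for Mrpl9 and Mrpl55, the 2 lowest large-subunit genes, and for Mrpl57 and Mrpl23 from the high end. They were picked by hand with their values known, and each has a single window. Mrpl48, whose difference lay between those of Mrpl57 and Mrpl23, has a window with an ETS core and no NRF1 core and is not printed. Capitals mark the NRF1 core. The printed stretches are from Mrpl9 (chr3:94443236-94443335), Mrpl55 (chr11:59202386-59202485), Mrpl57 (chr14:57826139-57826238) and Mrpl23 (chr7:142532932-142533031), all on the + strand.
Mrpl9: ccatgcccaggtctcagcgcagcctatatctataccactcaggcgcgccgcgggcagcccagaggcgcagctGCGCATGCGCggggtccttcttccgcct
Mrpl55: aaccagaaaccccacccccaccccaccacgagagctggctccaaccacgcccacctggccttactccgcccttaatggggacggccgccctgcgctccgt
Mrpl57: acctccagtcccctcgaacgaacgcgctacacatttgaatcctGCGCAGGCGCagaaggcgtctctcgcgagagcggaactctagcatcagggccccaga
Mrpl23: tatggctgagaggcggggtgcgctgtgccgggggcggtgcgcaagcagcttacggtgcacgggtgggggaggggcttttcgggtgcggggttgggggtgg
The core begins at position -28 from the start in Mrpl9 and -57 in Mrpl57, and the letters are not in the printed stretches of Mrpl55 and Mrpl23. So 1 of the 2 low genes and 1 of the 2 high genes printed had the core, a split set by which genes were printed. Mrpl45 (-0.24), Mrpl12 (-0.18) and Mrps9 (-0.16) are not printed and also have an NRF1 core in their windows. In these 3 both knockdown arrays lay below both control arrays, and among the 11 genes with the core only Mrpl57 had both above.

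The other genes that the mitochondrial ribosome works with were read the same way, in 5 lists with 77 tested genes that are not in the family, of which limma called 0 higher and 1 lower, where it called 1.28% and 1.45% of all genes. That count is near the share over all genes. The gene was Myc, which encodes a transcription factor of cell growth and mitochondrial biogenesis. Myc read 10.14 and 10.15 on the control and 9.35 and 9.36 on the knockdown arrays and fell by 0.78 (SE 0.09, limma adjusted p = 0.0253). The call ended at limma adjusted p of 0.127 to 0.177 with any 1 array left out at 0.0667 with dim probe sets kept in, at 0.0710 with the replicate block and at 0.185 over all probe sets past the filter, while the difference stayed between -0.79 and -0.78 with 1 array left out. Its part in the values of the ribosomal genes was not tested. Among the other 16 tested regulators of mitochondrial DNA expression and biogenesis none passed: Nrf1 differed by -0.15 and Gabpa by -0.025, and Polg, the mitochondrial DNA polymerase, by 0.33 (limma adjusted p = 0.109). Ppargc1a, a coactivator of mitochondrial biogenesis, read 2.97 to 3.14 on the 4 arrays, under the background.

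Ribosomal proteins listed under other names were also not called (5 tested, Mrpl57 and Mrpl58 among them). Dap3, a GTP-binding protein of the small subunit, differed by -0.081 and Gadd45gip1, of the large subunit, by -0.037. Ptcd3, an RNA-binding protein of the small subunit, read 9.51 and 9.27 on the control and 9.12 and 9.05 on the knockdown arrays, difference -0.31, limma adjusted p = 0.193. Its second probe set went the other way, from 5.04 and 5.40 to 6.32 and 7.74, a difference of 1.81. The knockdown arrays of that probe set stood 1.42 apart. The sources used here do not say which part of the transcript each probe set covers.

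Genes of ribosome assembly (27 tested) had a median of 0.018 and no call. Gtpbp10, a GTPase that matures the large subunit, read 8.65 and 8.43 on the control and 8.05 and 8.20 on the knockdown arrays, difference -0.41, SE 0.12, limma adjusted p = 0.124, and Mpv17l2 differed by 0.27. The 14 mitochondrial translation factors had a median of -0.0033. The elongation factor gene Tufm differed by -0.24 and Gfm1 by -0.21, both with groups apart, Taco1, an activator of COX1 translation, by -0.29 and Mtrf1l, a release factor gene, by 0.33. The 16 mitochondrial aminoacyl-tRNA synthetases had 12 values above 0 and a median of 0.088, from Mars2 at -0.25 to Vars2 at 0.42 (limma adjusted p = 0.107). None of the factors or synthetases passed the test.

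The messenger RNAs that the mitochondrial ribosome translates were measured by 10 single-gene probe sets. All of them had overlapping groups, while 54.0% of all genes had groups apart. Their differences ran from -0.10 for ND6 to 0.040 for ND3, with a median of -0.0090. They read between 10.9 and 13.6, where the highest value of each array was 13.65 to 13.72. Whether levels so near the top narrow the differences was not tested.

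**Figure D4:**
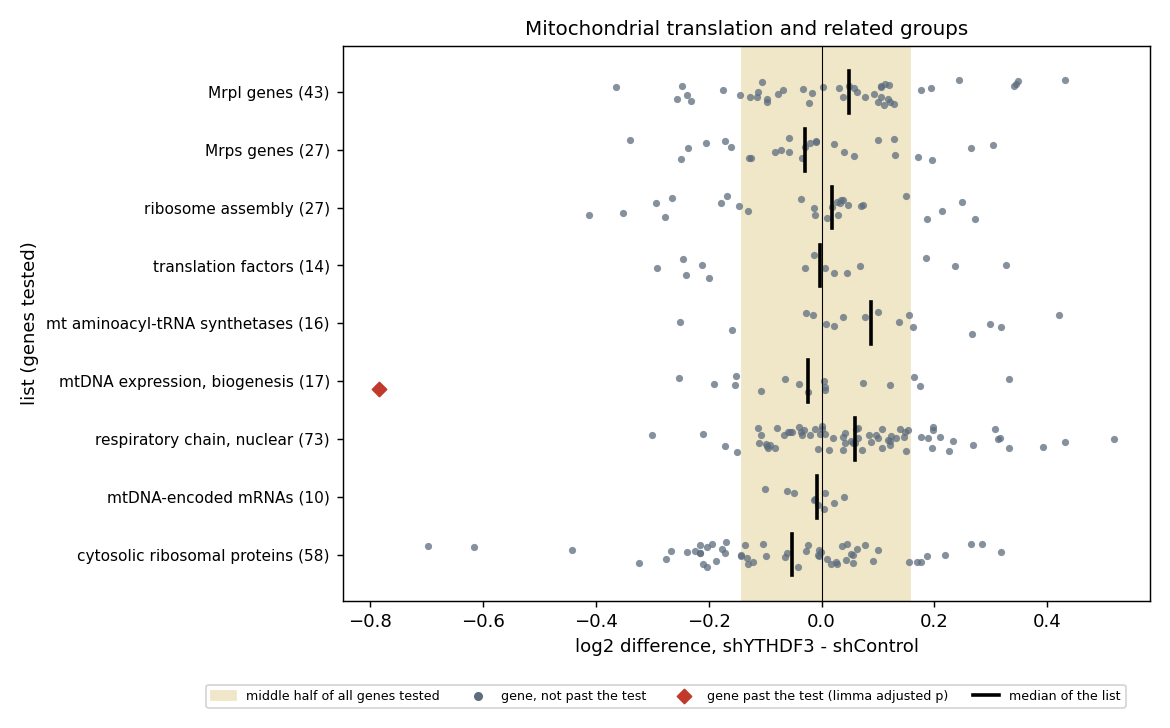
Log2 difference (horizontal axis) of each tested gene in the Mrpl and Mrps families, in other genes of mitochondrial translation, in the respiratory chain and in cytosolic ribosomal proteins; thick bars are medians and the band is the interquartile range of all genes tested. All medians lie inside the band, and Myc at -0.78 is the only gene past the limma test.

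The most similar groups in the cell, cytosolic ribosomal proteins and nuclear-encoded respiratory chain subunits, also held no limma call. Unadjusted p was under 0.05 for 2 higher and 5 lower of 58 cytosolic ribosomal genes, and for 7 higher and 1 lower of 73 respiratory chain genes, where 12.2% of all genes were higher and 10.4% lower. Their medians were -0.052 and 0.060. Both knockdown arrays lay above both control arrays for 24.1% of the cytosolic ribosomal genes and 42.5% of the respiratory chain genes, and below for 39.7% of the cytosolic genes and for 8 of the 73 respiratory chain genes, beside 28.3% above and 25.7% below over all genes. Over the 70 tested mitochondrial ribosomal genes the shares, 21.4% above and 25.7% below, lay nearer to each other, but the subunits differed. The 43 Mrpl genes had 25.6% above and 23.3% below. The 27 tested Mrps genes had 14.8% above and 29.6% below. The differences between these groups of genes were not tested. Rpl9, at -0.70, and Ndufs7, at 0.52, lay farther from 0 than any gene of the mitochondrial ribosome. Under the intensity trend, limma called both (adjusted p = 0.00556 for Rpl9 and 0.00590 for Ndufs7), as did its robust form.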

How the data were processed

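Per the labels' protocols, total RNA was extracted with Trizol, from which biotinylated RNA was made for Affymetrix arrays. The authors deposited 1 value per probe set and array, and the submitters' processing notes name RMA as the normalisation. Software, version and log base were not given in the sources used here. The deposited values were taken as log2, which their range fits. RMA makes the arrays' distributions alike, so a shift of most genes would not be seen. Gene symbols came from the platform annotation, updated to RefSeq through Entrez identifiers (23328 of 23521 single-gene probe sets). Where a gene had several probe sets, the brightest on average stood for it. The 13056 of 22180 genes with a mean above the 95th percentile of 1108 olfactory receptor probe sets (log2 4.28) were tested with limma 3.58.1 in R 4.3.3, two-sided, Benjamini-Hochberg adjusted, threshold 0.05.

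The members, the gene lists and the tests were chosen with earlier results of these data known, and the symbols of the mitochondrially encoded genes were matched to the annotation after it was opened. Genes named in full were Ythdf3, in each subunit the 6 highest and 6 lowest differences, genes with more than 1 probe set or under the background, and in other lists the called genes or the extremes; others are named to fill a group. The alternatives changed the filter, the variance model, the scaling, the handling of several probe sets, the replicate block and the arrays used. The limma step was tested on simulated data with 200 changed genes. It recovered 1.6% of log2 differences of 0.5 and 71.4% of those of 1, and 5.13% of its calls were false. A lack of calls at the sizes seen in the family therefore does not show that these genes were unchanged. The simulated rates hold for independent normal noise with 200 of 13056 genes changed, and they may differ on the real arrays. No depth applies to arrays; their number limits the precision. Promoter sequences are from RefSeq, GRCm38.p6. Figures used matplotlib 3.10.9 in Python 3.11.15.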

Additional observations from a re-analysis of the deposited data

How the results depend on the processing

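With 2 arrays a group, the smallest difference called over all genes was 0.51 on the log2 scale, and probe sets that disagree limit single genes. The 356 genes that limma called in all became 43 without the filter on dim probe sets, 1426 with an intensity trend, 1465 with a robust intensity trend, 0 over all probe sets past the filter (3337 at an unadjusted p under 0.05), and 0 to 12 with 1 array left out. With the replicate number as a block the count was 51, and the block gave 0 calls in the other lists of mitochondrial translation. Replicate differences correlated at -0.066 between the groups. The labels do not say whether samples of equal number were handled together, and that correlation cannot decide it. No alternative called a small-subunit gene. The trend, with and without robust estimation, called 2 large-subunit genes (Mrpl54 and Mrpl9) and 3 in the other lists (Myc, Gtpbp10 and Vars2), where the count was 0 without the filter, over all probe sets and with any 1 array left out; the alternatives for those lists were added after seeing the data. The large-subunit median lay between -0.015 and 0.10 and the small-subunit median between -0.049 and 0.015 with 1 array left out.

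Averaging a gene's probe sets turned the difference to -0.013 for Mrpl10, -0.014 for Mrpl47, 0.15 for Mrps16, 0.11 for Mrps17 and 0.75 for Ptcd3, as their second probe sets enter it. The second probe set of Mrps17 lay above the background on shYTHDF3 2 only. A common median turned Mrps16 to 0.011. With 1 array left out, Mrpl47 ran from -0.049 to 0.11, Mrps14 from -0.76 to 0.080, Mrps16 from -0.17 to 0.15, ND3 from -0.059 to 0.14 and ND6 from -0.36 to 0.16. The cause of the other changes was not tested.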
